A study of Mus musculus with 6 samples.

Results

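The Cyp2b family of drug-metabolizing cytochromes P450 was examined in the livers of alcohol-treated mice. Its members on the array were the probes whose gene name begins with Cyp2b on all 6 arrays, which gave 8 of 41174 probes. These 8 probes stand for 4 genes, Cyp2b10, Cyp2b9, Cyp2b13 and Cyp2b19, of 27962 gene names, with 2 probes each, and every probe was kept apart. The family was selected on its measured alcohol over control ratios, so those ratios are given as a description, with no p.

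The cytochromes P450 of the Cyp2b subfamily are membrane enzymes of the endoplasmic reticulum that oxidize drugs, other foreign chemicals and steroids. Cyp2b10 is the best known target of the constitutive androstane receptor (CAR, encoded by Nr1i3), a nuclear receptor that is held in the cytoplasm of hepatocytes, moves to the nucleus after exposure to phenobarbital-like chemicals and binds DNA together with a retinoid X receptor. Cyp2b9 and Cyp2b13 are steroid hydroxylases whose transcripts are, in adult mice, more abundant in female than in male liver, a difference that depends on the sex-specific pattern of growth hormone secretion. Cyp2b19 is a fatty acid epoxygenase known mainly from the keratinocytes of the skin.

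The animals were male mice of the 129/Sv strain, 6 to 8 weeks of age when treatment began. The alcohol-treated group drank a Lieber-DeCarli liquid diet with 4% ethanol. In the diet of the control group maltose dextran took the place of the ethanol calories, and every mouse began on that control diet. After 1, 2 and 4 months, liver RNA from 6 mice per group was combined into an alcohol pool and a control pool, which were hybridized together on 2 two-color arrays with the dyes exchanged. Each month therefore had 1 pool per group, the 2 arrays of a month carried the same RNA and count as 1 replicate, and variation between mice was not measured. The 1-month arrays lay on a different slide from the 2- and 4-month arrays, so for any step from 1 month onward, time on the diet and slide cannot be told apart. RNA came from whole liver, in which fewer cells of a type and less RNA per cell cannot be told apart.

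The arrays measured intensity and not read counts. Of all probes, 73.1% to 90.3% were well above background in a channel, and precision is limited by how few arrays there are. All 9 measured hepatocyte markers of a list of 10 were well above background in both pools at every month. They include albumin and other liver-made proteins, and 0 of them changed by 2-fold on both arrays. Some of these bright probes changed sign with the dye. At 4 months the log2 ratios on the 2 arrays were 1.23 and -1.34 for Apoa1 and 1.46 and -1.18 for Ahsg. For such probes a rule on both arrays could hardly give a call, so 0 calls do not show unchanged levels. Markers of cholangiocytes, macrophages, endothelial cells and stellate cells were also not called at any month, although all 6 endothelial markers were higher in the alcohol pool on both 1-month arrays (median log2 ratio 0.36). Of 8 macrophage markers, 5 were higher and 0 lower on both 1-month arrays (list median 0.25). The means of that list ran from 0.012 to 1.23, the highest being that of Adgre1 with log2 ratios of 0.71 and 1.76. Of 9 measured pancreas acinar markers, all 9 were higher in the alcohol pool on both 4-month arrays. Of these, Cela2a and Cpb1, which encode digestive enzymes, passed 2-fold there. The summed level of this list, on the log2 scale relative to the 75th percentile of the channel, was 3.81, 4.24 and 4.28 in the control pools of 1, 2 and 4 months and 3.77, 4.26 and 4.66 in the alcohol pools. That of the endothelial list was 2.26 to 2.53 in the control pools and 2.44 to 2.59 in the alcohol pools. The summed level of the hepatocyte list was 8.19, 8.04 and 6.89 in the control pools and 8.23, 8.05 and 7.06 in the alcohol pools, lower at 4 months in both. Alb, which encodes albumin, had a level of 5.27 in the control and 5.29 in the alcohol pool of 2 months and of 1.16 and 1.75 in those of 4 months, on the same slide. Of 3 red cell genes, Hba-a1 was higher by 2-fold on both arrays at 1 month and Alas2 was lower at 4 months. The part of other cell types in the Cyp2b ratios was not tested.

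The Cyp2b genes lie in a cluster on mouse chromosome 7, and their start regions are shown to compare the members of the family. The sequences are the 250 bases before each gene's start, from RefSeq on build GRCm38.p6, plus strand, 5′ to 3′. They belong to the reference genome and not to the 129/Sv strain. Capitals mark bases that differ from the aligned Cyp2b9 sequence or have no partner in it. The windows are chr7:26173159-26173408 for Cyp2b9, chr7:26061245-26061494 for Cyp2b13, chr7:25897408-25897657 for Cyp2b10 and chr7:26756892-26757141 for Cyp2b19.
Cyp2b9: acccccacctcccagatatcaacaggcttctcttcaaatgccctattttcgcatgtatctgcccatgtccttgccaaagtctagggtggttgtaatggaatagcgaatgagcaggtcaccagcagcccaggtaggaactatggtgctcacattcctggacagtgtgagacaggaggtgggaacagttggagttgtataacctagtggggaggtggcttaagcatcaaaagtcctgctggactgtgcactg
Cyp2b13: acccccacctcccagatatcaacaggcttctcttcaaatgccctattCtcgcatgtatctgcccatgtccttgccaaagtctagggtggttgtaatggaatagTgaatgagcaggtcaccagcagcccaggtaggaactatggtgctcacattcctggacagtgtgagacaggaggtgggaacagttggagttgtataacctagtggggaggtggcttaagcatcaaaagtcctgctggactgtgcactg
Cyp2b10: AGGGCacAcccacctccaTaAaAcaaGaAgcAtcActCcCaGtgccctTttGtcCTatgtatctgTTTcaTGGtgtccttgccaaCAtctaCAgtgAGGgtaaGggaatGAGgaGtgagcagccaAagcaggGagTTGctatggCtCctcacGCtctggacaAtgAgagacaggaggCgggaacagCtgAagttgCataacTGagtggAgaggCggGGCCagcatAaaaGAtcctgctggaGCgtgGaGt
Cyp2b19: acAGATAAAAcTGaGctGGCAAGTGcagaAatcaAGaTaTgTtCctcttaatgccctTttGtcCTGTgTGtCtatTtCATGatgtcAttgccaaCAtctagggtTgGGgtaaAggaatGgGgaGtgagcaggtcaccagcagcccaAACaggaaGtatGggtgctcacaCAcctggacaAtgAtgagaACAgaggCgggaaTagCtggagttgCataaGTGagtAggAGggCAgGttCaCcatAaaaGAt

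The windows of Cyp2b9 and Cyp2b13 were identical at 248 of 250 bases (99.2%). Counted from 1 at the 5′ end of the window, with the base of Cyp2b9 first, the differences were T48C and C104T. Cyp2b10 matched Cyp2b9 at 182 of 240 aligned bases (72.8% of the window). Cyp2b19, which was not raised, matched Cyp2b9 at 170 of 229 aligned bases (68% of the window). Cyp2b10 and Cyp2b19 matched each other at 180 of 227 aligned bases (72% of the window). The hexamer AGGTCA, a core element of nuclear receptor sites, was searched on both strands. It was present in Cyp2b9 and Cyp2b13, with its leftmost base at -138 from the gene start, and in Cyp2b19 at -121, and it occurs in 14.0% of 32851 windows of the same length. The related hexamers AGTTCA and AGTACA, found in 11.8% and 7.65% of windows, were in none of the 4. The TATA-like letters ATAAAA, found in 17.0% of windows, lay at -233 and -27 in Cyp2b10 and at -246 and -9 in Cyp2b19. Such matches describe the letters only, and sequence farther than 250 bases before a gene start was not searched.

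Of the 8 Cyp2b probes, 7 passed the filter on dim probes at every month, which asked for at least 1 channel well above background on both arrays of the month. A probe was called raised or lowered when its ratio passed 2-fold in the same direction on both arrays of a month. By this rule the raised Cyp2b probes numbered 6 after 1 month, 4 after 2 months and 5 after 4 months, and 0 were lowered. Over all probes that passed the filter, 0.117% of 29888 were raised and 0.0502% lowered at 1 month, 0.0808% of 33424 raised and 0.0509% lowered at 2 months, and 0.21% of 34214 raised and 0.167% lowered at 4 months. These shares are given as background, and since the family was chosen by the same ratios nothing is read from the comparison. The median log2 ratio of the 8 Cyp2b probes was 2.68, 1.94 and 2.12 at 1, 2 and 4 months, beside medians of -0.0024, 0.011 and -0.014 for all probes that passed. The lowest ratio among the raised Cyp2b probes and the highest among the others that passed were 1.23 and 0.050 after 1 month, 2.77 and 1.11 after 2 months, and 1.87 and 0.19 after 4 months.

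**Figure D1:**
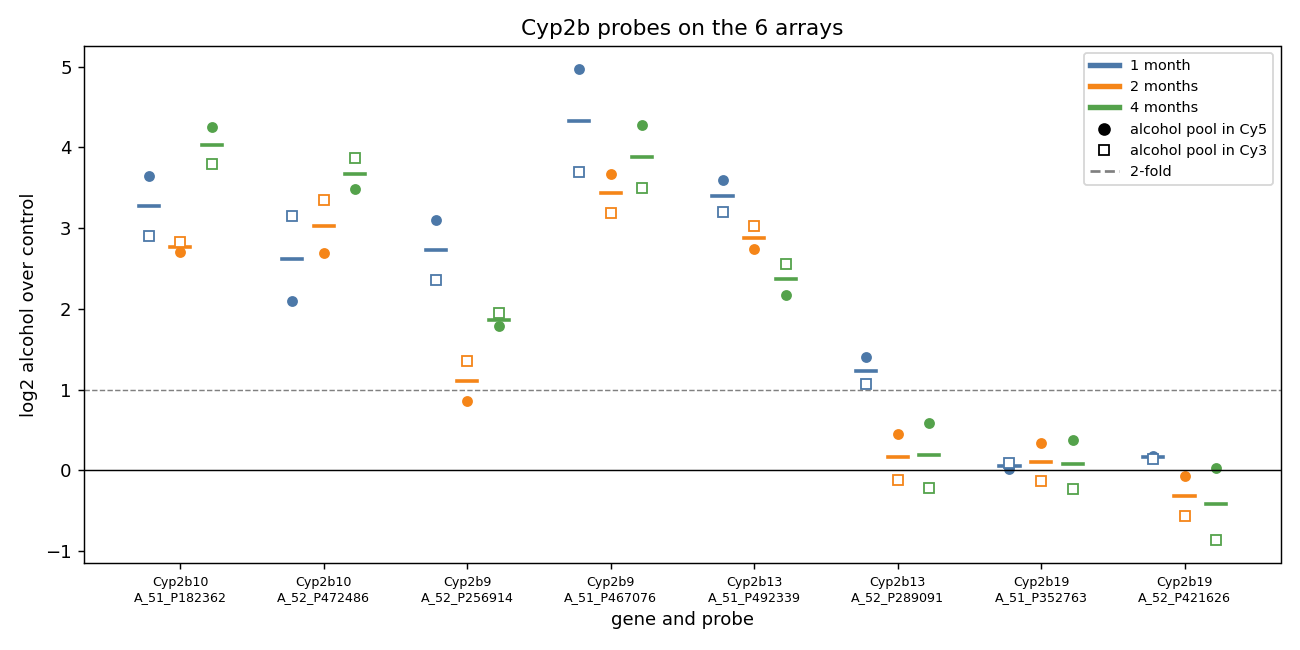
Log2 alcohol over control of each Cyp2b probe (x axis, gene and probe) on each of the 6 arrays (y axis). Circles are arrays with the alcohol pool in Cy5, open squares those with it in Cy3, short bars the mean of the 2 arrays, colors the months, and the dashed line 2-fold. Both Cyp2b10 probes, Cyp2b9 probe A_51_P467076 and Cyp2b13 probe A_51_P492339 lie above the dashed line on all 6 arrays, and the Cyp2b19 probes lie near or below 0.

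Cyp2b10, the CAR target, was high in the alcohol pool on every array. At 1 month the processed signal of probe A_51_P182362 was 137 in the control pool and 1711 in the alcohol pool where alcohol was in Cy5, and 218 and 1624 on the dye-swapped array. At 2 months the corresponding signals were 307 and 2004, then 286 and 2037. At 4 months they were 359 and 6854, then 506 and 7010. On both arrays of each month the alcohol signal was above the control signal, and the 2 arrays carry the same pools. The highest alcohol signals were those of 4 months. Signals, here and below, are not scaled between arrays. The mean log2 ratio was 3.27 ± 0.53 (SD of the 2 arrays of 1 pair of pools, as for all SDs of ratios below) at 1 month, 2.77 ± 0.089 at 2 months and 4.03 ± 0.33 at 4 months, or 9.67-, 6.81- and 16.3-fold.

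The other Cyp2b10 probe, A_52_P472486, gave log2 ratios of the same order. The 2 arrays gave 2.09 and 3.15 at the first time point, 2.70 and 3.35 at the second and 3.48 and 3.87 at the last, with means of 2.62, 3.02 and 3.68 (6.15-, 8.14- and 12.8-fold). In the 1-month control pool this probe was well above background on 1 of 2 arrays. The ratios of both Cyp2b10 probes were highest at 4 months. The order of their 1- and 2-month means differed, but these means lay within the 1-month SDs of 0.53 (A_51_P182362) and 0.74 (A_52_P472486). The means of the 2 probes differed by 0.65, -0.26 and 0.35 at 1, 2 and 4 months (A_51_P182362 minus A_52_P472486), and only the last exceeded both probes' SDs of 0.33 and 0.27.

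Cyp2b9, a female-predominant steroid hydroxylase, was higher in the alcohol pool on all 6 arrays with both probes, but the sizes did not match. Probe A_52_P256914, the brighter of the pair, had signals of 718 and 6181 in the control and alcohol pools of 1 month with alcohol in Cy5, and 1283 and 6582 on the dye-swapped array. At 2 months its signals were 585 and 1062, then 388 and 992. At 4 months they were 920 and 3179, then 735 and 2837. The alcohol signals were above the control signals at each month, with the narrowest gap at 2 months, where the ratio with alcohol in Cy5 was 1.82-fold and the probe was not called. Its mean log2 ratios were 2.73 ± 0.53, 1.11 ± 0.35 and 1.87 ± 0.11 (6.65-, 2.15- and 3.65-fold).

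Probe A_51_P467076 of Cyp2b9 gave the largest mean ratio of all probes that passed the filter at 1 and 2 months and the 3rd largest at 4 months. Its control signal was low but well above background on all 6 arrays. At 1 month it read 134 in the control and 4198 in the alcohol pool with alcohol in Cy5, and 278 and 3594 on the other array. At 2 months it read 29.8 and 381, then 41.2 and 375, and at 4 months 81.6 and 1577, then 89.7 and 1010. The mean log2 ratios were 4.33 ± 0.90, 3.43 ± 0.34 and 3.88 ± 0.55 (20.1-, 10.8- and 14.8-fold). They exceeded those of A_52_P256914 by more than the SD of either probe at every month, the difference (A_52_P256914 minus A_51_P467076) being -1.60, -2.32 and -2.02. Both probes had their lowest ratio at 2 months.

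Cyp2b13, the close paralog of Cyp2b9, was higher in the alcohol pool on all 6 arrays with its leading probe, A_51_P492339, and no spot of it was saturated. The control and alcohol signals of this probe were 1448 and 17545 at 1 month with alcohol in Cy5, and 2278 and 20861 on the dye-swapped array. They were 867 and 5780, then 847 and 6911, at 2 months. At 4 months they were 4647 and 20948, then 3365 and 19801. On both arrays of each month the alcohol signal was above the control signal. The mean log2 ratio was 3.40 ± 0.29, 2.88 ± 0.21 and 2.36 ± 0.27 (10.5-, 7.38- and 5.15-fold). It was lowest at 4 months, where the ratios of both Cyp2b10 probes were highest.

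The other Cyp2b13 probe, A_52_P289091, did not show ratios of this size. The 1-month arrays gave log2 ratios of 1.40 and 1.06, which met the 2-fold rule. The 2-month arrays gave 0.45 and -0.12, and the 4-month arrays 0.59 and -0.22. At the later months the sign changed with the dye orientation. The difference between the Cyp2b13 probes was 2.16, 2.71 and 2.18, larger than the SD of either at every month. The probe sequences were not used here. Because Cyp2b9 and Cyp2b13 are close paralogs, how far each probe detects the transcript of the other gene was not tested, and a ratio belongs to a probe before it belongs to a gene.

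Cyp2b19, the skin epoxygenase, was not called at any month. Its probe A_51_P352763 was measured well above background in every channel and had mean log2 ratios of 0.050, 0.11 and 0.073, with opposite signs on the 2 arrays at 2 and 4 months. Its probe A_52_P421626 never stood well above background, in any pool or array, and did not pass the filter.

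Only 9 probes of the array were raised by the 2-fold rule at all of the 3 months, and 4 of them were the Cyp2b members named above: both Cyp2b10 probes, A_51_P467076 of Cyp2b9 and A_51_P492339 of Cyp2b13. The other 5 were probes of Cyp4a10 (2 probes), Cyp4a14 and Cyp4a31, fatty acid hydroxylases under the control of PPAR-alpha, and a probe named NAP026914-1. Nothing is read from the share of Cyp2b probes among the 9, since these ratios chose the family. The limma effect over the 3 monthly ratios, fitted over the 37922 probes with a channel well above background somewhere among the arrays, gave 0 probes (0%) at an adjusted p under 0.05, and 3012 at an unadjusted p under 0.05. With normexp and loess normalization limma gave 9 probes, and among the 27898 probes that no channel of any array left dim it gave 6. Cyp2b probes were part of these fits, 7 among the 37922 and 6 among the 27898, and were 3 of the 9 calls and 3 of the 6. The family was chosen on these ratios, so nothing is read from its calls.

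The levels of each probe in the 6 pools were compared after each channel was set relative to its 75th percentile, on the log2 scale. For Cyp2b10 (A_51_P182362) the control pools lay close together, at -2.63 ± 0.53, -2.31 ± 0.19 and -2.44 ± 0.59 after 1, 2 and 4 months (mean ± SD of 2 arrays). The alcohol pools lay at 0.64 ± 0.0025, 0.45 ± 0.28 and 1.59 ± 0.26. With the 75th percentile scaling the order was therefore alcohol at 4 months, then alcohol at 1 and 2 months, which did not differ beyond their spread, then the 3 control pools, which also did not. From 1 to 2 months the control level differed by 0.32 to 0.85 over the scalings, and the highest, with the channel median, exceeded the SDs above. Between the alcohol pools of 1 and 2 months the sign changed with the scaling (-0.19 to 0.35). From 2 to 4 months, on the same slide, the alcohol level rose by 1.02 to 1.15 under the scalings tried (75th percentile, channel median, loess with Aquantile). The other Cyp2b10 probe rose by 1.18 in the alcohol pool and by 0.52 in the control pool with the 75th percentile scaling (0.32 to 0.54 in the control pool over the scalings). Over 28532 probes the same step had an SD of 0.44 and a 99th percentile of 1.04 under that scaling.

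For Cyp2b9 (A_52_P256914) the control level was -0.15 ± 0.65, -1.62 ± 0.16 and -1.49 ± 0.013 in order of time. The alcohol level was 2.58 ± 0.12, -0.52 ± 0.20 and 0.38 ± 0.12. The 1-month alcohol pool was thus the highest, and with the 75th percentile scaling the 1-month control pool did not differ beyond its spread from the alcohol pools of 2 and 4 months. With the channel median the 4-month alcohol pool lay 1.08 above it, beyond the SD of 0.65. With the other Cyp2b9 probe, A_51_P467076, the 4-month alcohol pool lay 1.59 to 2.14 above the 1-month control pool over the scalings. The value with the 75th percentile, 1.59, was beyond the SD of 0.80. The 2-month alcohol pool of this probe lay 0.50 above that control pool with the 75th percentile, within the SD. With the channel median it lay 1.04 above (SD 0.80) and with loess and Aquantile 0.90 above (SD 0.78). From 1 to 2 months the alcohol level of A_52_P256914 changed by -3.10 to -2.57 over the scalings, and the control level by -1.47 to -0.94. The other Cyp2b9 probe changed by -3.83 to -3.05 in the alcohol pool and by -2.93 to -1.84 in the control pool over this step. Both pools were therefore lower at 2 months than at 1 month with both probes, a step that also changes the slide. Over all probes it had an SD of 1.02 and a 1st percentile of -2.65 in the alcohol pools, against an SD of 0.44 for the step from 2 to 4 months within a slide.

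For Cyp2b13 (A_51_P492339) the control level was 0.77 ± 0.52, -0.78 ± 0.24 and 0.78 ± 0.087 at 1, 2 and 4 months, and the alcohol level was 4.16 ± 0.23, 2.10 ± 0.45 and 3.14 ± 0.18. The alcohol pools stood above the control pools, in the order 1, 4 and 2 months. The control pools of 1 and 4 months did not differ beyond their spread with the 75th percentile scaling. With the channel median the 4-month control pool lay 0.56 above that of 1 month, and with loess and Aquantile the difference was -0.49, both beyond the 1-month SDs of 0.52 and 0.39, so the sign changed with the scaling. Between 2 and 4 months, within a slide, the control level rose by 1.34 to 1.57 and the alcohol level by 0.84 to 1.06 over the scalings. The control step lay above the 99th percentile of all probes (0.96, 28301 probes, 75th percentile scaling). The fall of the Cyp2b13 ratio between these months thus came with a larger rise in the control pool than in the alcohol pool. The other Cyp2b13 probe rose by 0.27 to 0.32 in the control pool and by 0.26 to 0.34 in the alcohol pool. Over this step the hepatocyte list had the lower summed levels given above, and the part of that shift in the Cyp2b levels was not tested.

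**Figure D2:**
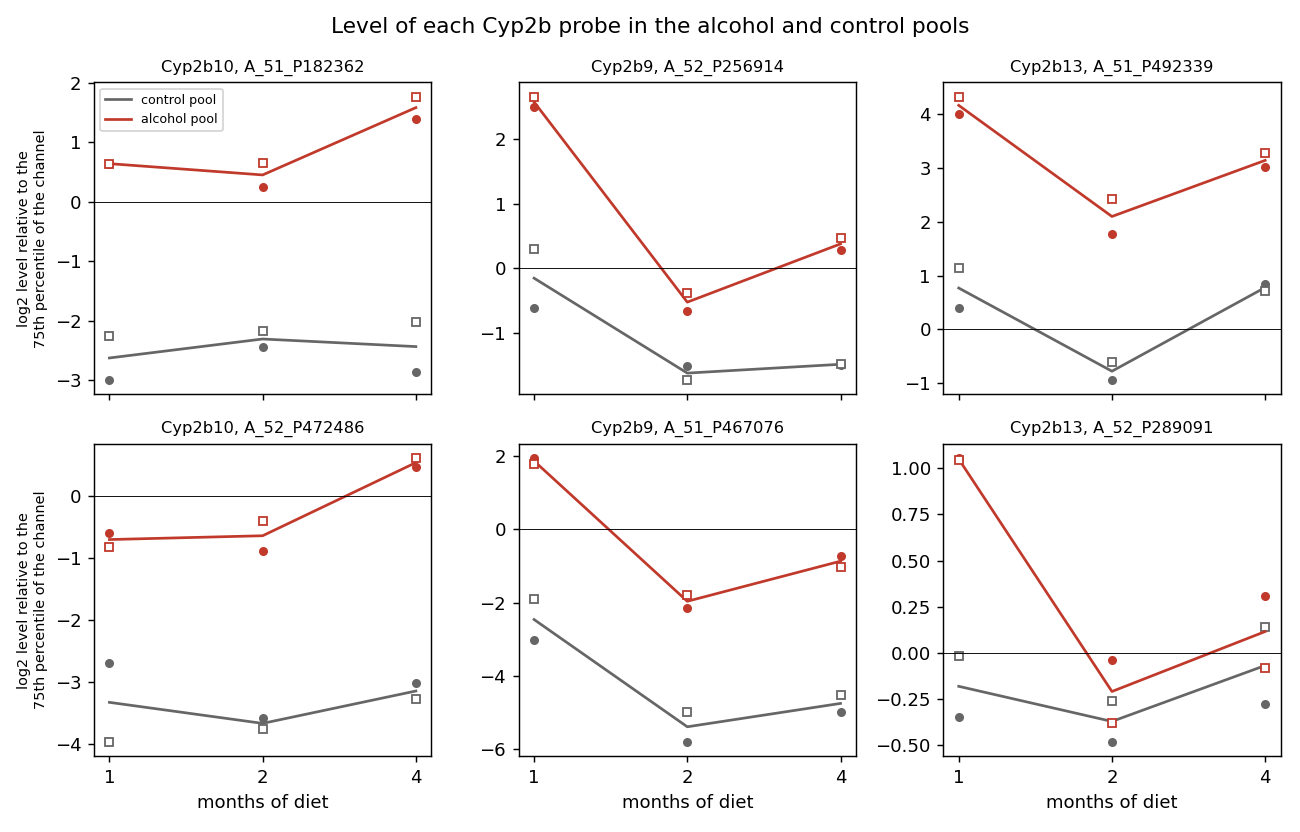
Log2 level relative to the 75th percentile of the channel (y axis) against months of diet (x axis) for the 2 probes each of Cyp2b10, Cyp2b9 and Cyp2b13; gray is the control pool and red the alcohol pool. Circles are arrays with alcohol in Cy5, open squares those with alcohol in Cy3, and lines join the means of the 2 arrays; each panel has its own y scale. The means of the Cyp2b10 control pools stay within -2.63 to -2.31 for A_51_P182362 while the Cyp2b9 levels are highest at 1 month.

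The probes whose levels over the 6 pools were most like those of each leading Cyp2b probe were found by Euclidean distance after centring, among 28532 probes well above background in the alcohol pool on all arrays. Each other gene was counted once, by its nearest probe. For Cyp2b10 the nearest were NAP026914-1 (distance 1.86), Cyp2b13 (2.22), Cyp4a10 (2.24), Cyp4a31 (2.39) and Cyp4a14 (2.39), where the median of all candidates was 4.34 and the other Cyp2b10 probe was at 0.65. For Cyp2b9 they were Gsta2 (1.31), Gal3st1 (1.63), Cyp3a44 (1.66), Serpinb1b (1.66) and Fam81a (1.70), with a median of 3.27. The other Cyp2b9 probe was farther than all of these, at 2.69. For Cyp2b13 they were Cyp2b9 (1.88), Cyp2b10 (2.04), an unnamed probe A_51_P281078 (2.05), Abcd2 (2.39) and Gsta2 (2.50), with a median of 4.01. The other Cyp2b13 probe was farther than all of these, at 3.13. The 6 pools come from 6 arrays on 2 slides, and a likeness over 6 values says nothing of a shared control. The filter asked for brightness in the alcohol pool only, the pool in which the leading Cyp2b probes are high. It left out probes dim there and kept probes dim in the control pool. Cyp2b10 probe A_52_P472486 was well above background in the 1-month control pool on 1 of 2 arrays. The distances are thus a description only.

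In the RefSeq gene order of chromosome 7, the stretch from Cyp2b10 to Cyp2a5 holds 25 genes, 13 of them protein coding and 8 pseudogenes. Of the protein-coding genes, 9 had a probe. Each is given here by a single probe, for the Cyp2b genes the one of highest mean signal. Cyp2b10, Cyp2b13 and Cyp2b9 come first in this order with no other protein-coding gene between them. The next gene with a probe, Cyp2a4, a female-predominant steroid hydroxylase, had mean log2 ratios of 0.70, 0.87 and 1.19 and was called at 4 months. Nlrp4a and Vmn1r185, which are not liver enzymes, had ratios between -0.22 and 0.33 and were not called. Cyp2b19 lay beyond them, beside Cyp2g1, an olfactory P450 with ratios of 0.13, 0.087 and 0.50. At the far end Cyp2a5, a coumarin hydroxylase, had ratios of 0.83, 1.13 and 2.22 and was called at 4 months. No probe was matched to Cyp2b23.

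**Figure D3:**
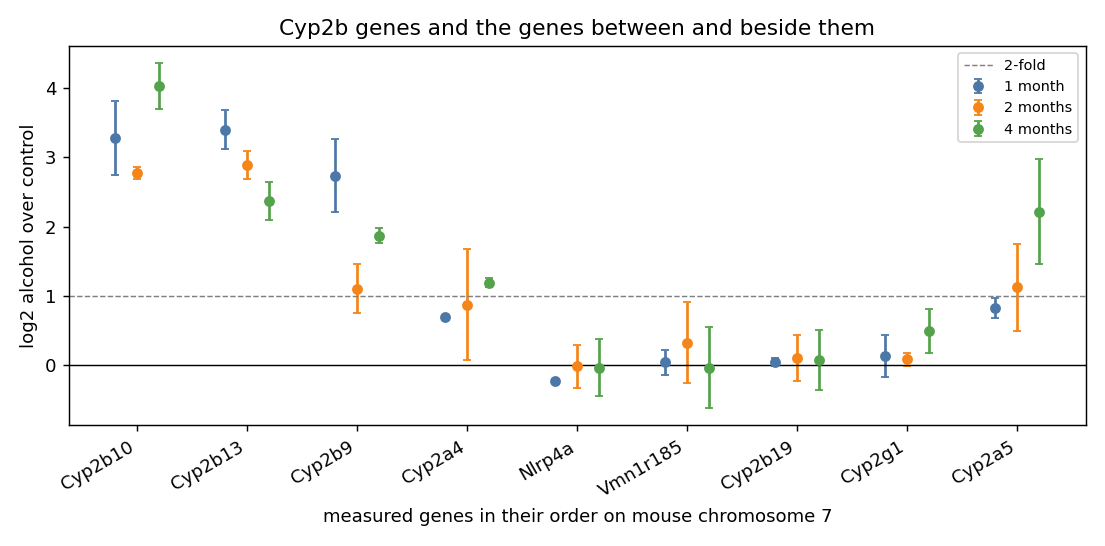
Mean log2 alcohol over control (y axis; points are means and bars the SD of the 2 arrays) of the 9 measured protein-coding genes from Cyp2b10 to Cyp2a5, in their order on mouse chromosome 7 (x axis, not to scale), by month; the dashed line is 2-fold. Each gene is shown by a single probe, for the Cyp2b genes the one of highest mean signal. By these probes Cyp2b10, Cyp2b13 and Cyp2b9 lie between 1.11 and 4.03, Cyp2b19 between 0.050 and 0.11, and Cyp2a5 reaches 2.22 at 4 months. The other probe of Cyp2b9, not shown, reached 4.33 at 1 month. That of Cyp2b13 lay at 0.17 and 0.19 at 2 and 4 months, and that of Cyp2b19 was dim.

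The other target genes of CAR and of the related pregnane X receptor (PXR, encoded by Nr1i2) were described next. The list held 38 genes, 36 had a probe and 35 passed the filter at each month. Calls at 1 month were 2 raised and 0 lowered, those at 2 months 1 raised and 1 lowered, and those at 4 months 5 raised and 0 lowered. In all, 8 genes were called at some month and 0 at every month. With either array left out, the raised genes numbered 3 to 4, 1 to 5 and 8 to 9 at 1, 2 and 4 months, and 1 was lowered at 1 month. The median log2 ratio of the list was 0.28, 0.19 and 0.41 at 1, 2 and 4 months, beside -0.0024, 0.011 and -0.014 for all probes. The limma effect over the months called 0 of these genes (lowest adjusted p = 0.613).

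Among the P450 targets, the calls came at 4 months. Cyp2c29, a drug hydroxylase, reached log2 ratios of 2.93 and 2.04 there. Cyp2c37, of the same subfamily, had 1.28 and 1.22. Cyp2a5 had 2.75 and 1.68, and Cyp3a11, the classic PXR target, had 1.73 and 3.08. At 1 and 2 months the mean log2 ratios were 0.63 and 0.81 for Cyp2c29, 0.73 and 0.76 for Cyp2c37, 0.83 and 1.13 for Cyp2a5 and 0.94 and 1.29 for Cyp3a11, without 2-fold on both arrays. For the conjugating enzymes the calls came at 1 month, with mean log2 ratios of 1.56 ± 0.21 for Gsta2, a glutathione S-transferase, and 1.63 ± 0.18 for Ugt1a9, a glucuronosyltransferase. Gadd45b, a stress-response gene induced through CAR, was called after 2 months (1.16 and 1.85) and after 4 months (2.11 and 2.42). Thrsp, a regulator of lipid synthesis, was lowered at 2 months (-1.51 and -1.16).

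The receptors and the machinery that serve these genes were not called. All 16 genes of the regulator list had a probe, 0 were called at any month, and the list medians were 0.017, 0.067 and 0.045. Nr1i3, which encodes CAR, gave log2 ratios of 0.095 and 0.23 at the first time point, -0.20 and 0.39 at the second and -0.28 and 0.30 at the last, so its sign changed with the dye at the later months. Nr1i2, which encodes PXR, had -0.12 and -0.079, then 0.12 and 0.47, then 0.097 and 0.49. The lowest mean of the list was that of Egfr, the growth factor receptor through which phenobarbital acts on CAR, at -0.90 at 1 month. Por, the reductase that passes electrons to P450 enzymes, had mean ratios of 0.28, 0.046 and 0.37. Alas1, the first enzyme of heme synthesis, had 1.03, 0.64 and 0.36 and was not called.

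**Figure D4:**
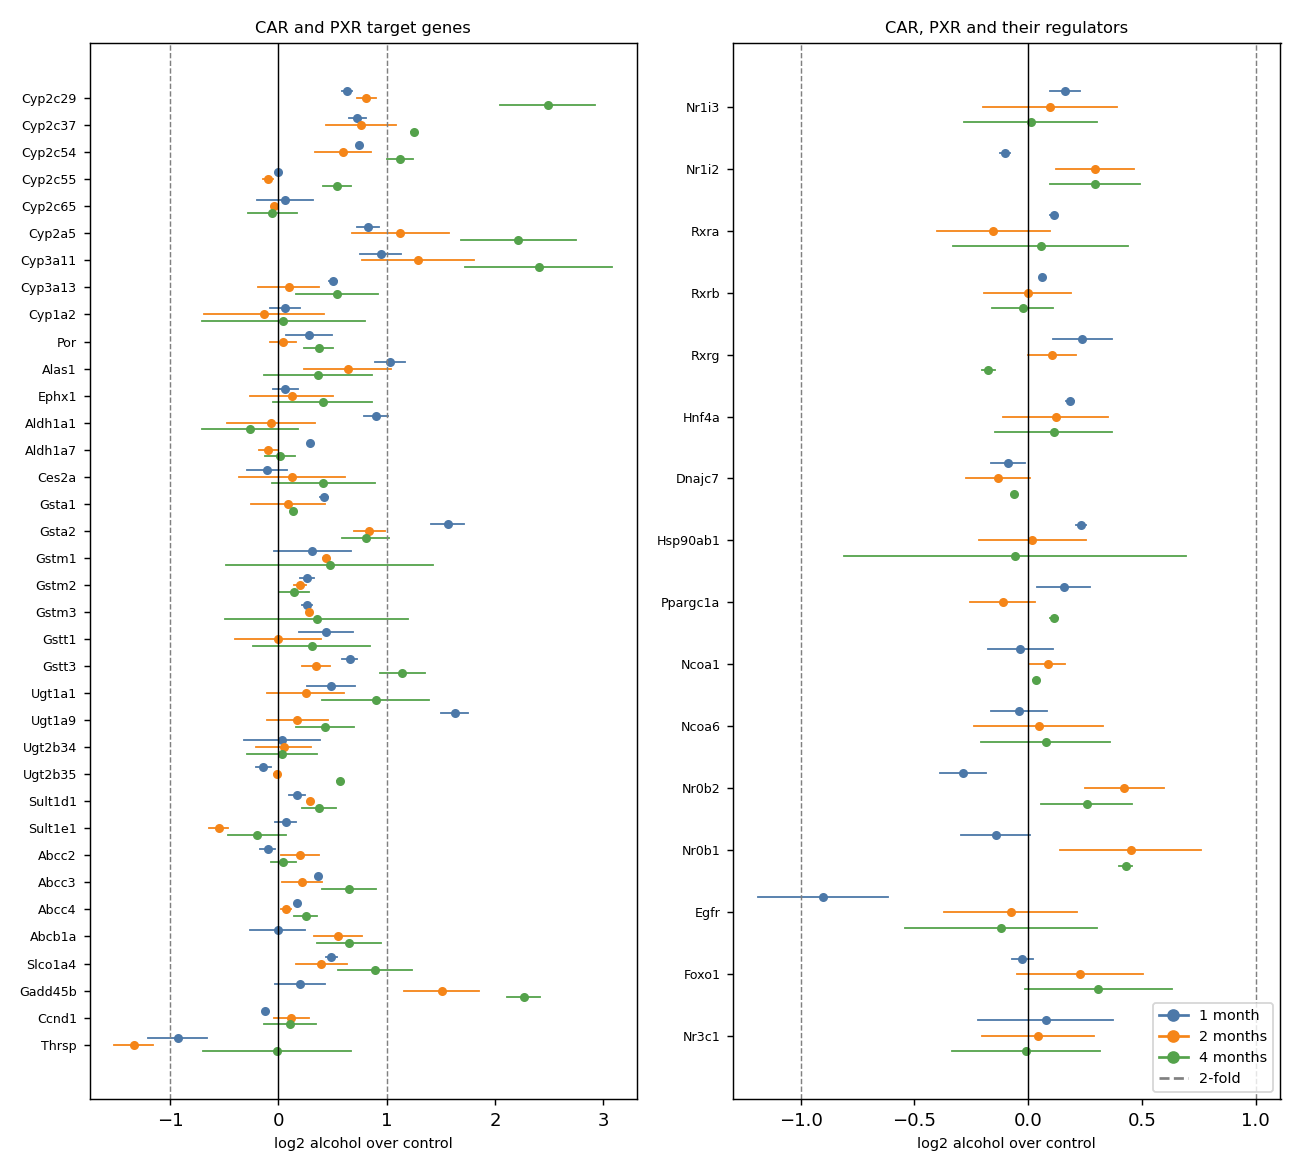
Log2 alcohol over control (x axis) of the CAR and PXR target genes (left) and of CAR, PXR and their regulators (right), one gene per row and one color per month; points are means, lines join the 2 arrays of a month, dashed lines mark 2-fold, and the panels have different x scales. Cyp2c29, Cyp2a5, Cyp3a11 and Gadd45b reach means above 2 at 4 months, and no regulator mean passes 2-fold.

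Since Cyp2b9 and Cyp2b13 are female-predominant in mouse liver, other genes with a sex difference there were listed. Of 19 female-predominant genes outside the family, 17 had a probe, and 13, 17 and 17 passed the filter at 1, 2 and 4 months. Of these, 0 were called at 1 month, 1 was raised and 1 lowered at 2 months, and 5 were raised and 1 lowered at 4 months. The list medians were 0.20, 0.19 and 0.61, and of the genes that passed, 8, 9 and 11 were higher and 3, 2 and 1 lower on both arrays of the month. The steroid and drug hydroxylases Cyp3a41a (2.07 and 2.09 on the 2 arrays), Cyp3a44 (2.20 and 2.37), Cyp3a16 (1.82 and 3.06) and Cyp2a4 (1.15 and 1.24) were raised at 4 months. Cyp3a41a was also raised at 2 months. The Cyp3a genes are close paralogs, so their probes may share transcripts. Cyp2a4 is of the same subfamily as Cyp2a5 of the CAR and PXR list, and whether their probes share transcripts was not tested. Sult3a1, a sulfotransferase (2.37 and 1.91), was raised at 4 months as well. Hamp2, a hepcidin gene, was lowered after 2 months (-1.24 and -1.61) and after 4 months (-1.41 and -1.18).

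Of 18 male-predominant genes, 16 had a probe, 0 were raised at any month, and 5, 2 and 3 were lowered at 1, 2 and 4 months. The list medians were -0.93, -0.25 and -0.35. Hsd3b5, a steroid reductase, was lowered at each month (-3.15 and -2.72, then -2.32 and -1.77, then -4.87 and -4.78). Cyp7b1, an oxysterol hydroxylase, was lowered at each month too, with means of -1.55, -1.42 and -1.64. Mup3, a major urinary protein, was lowered at 4 months. Selenbp2, the transporter Slco1a1 and the transcriptional repressor Bcl6 were lowered at 1 month. All 5 listed genes on the sex chromosomes had a probe and 0 were called. Xist, the transcript of the inactive X chromosome, had mean log2 ratios of -0.18, 0.18 and 0.12.

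**Figure D5:**
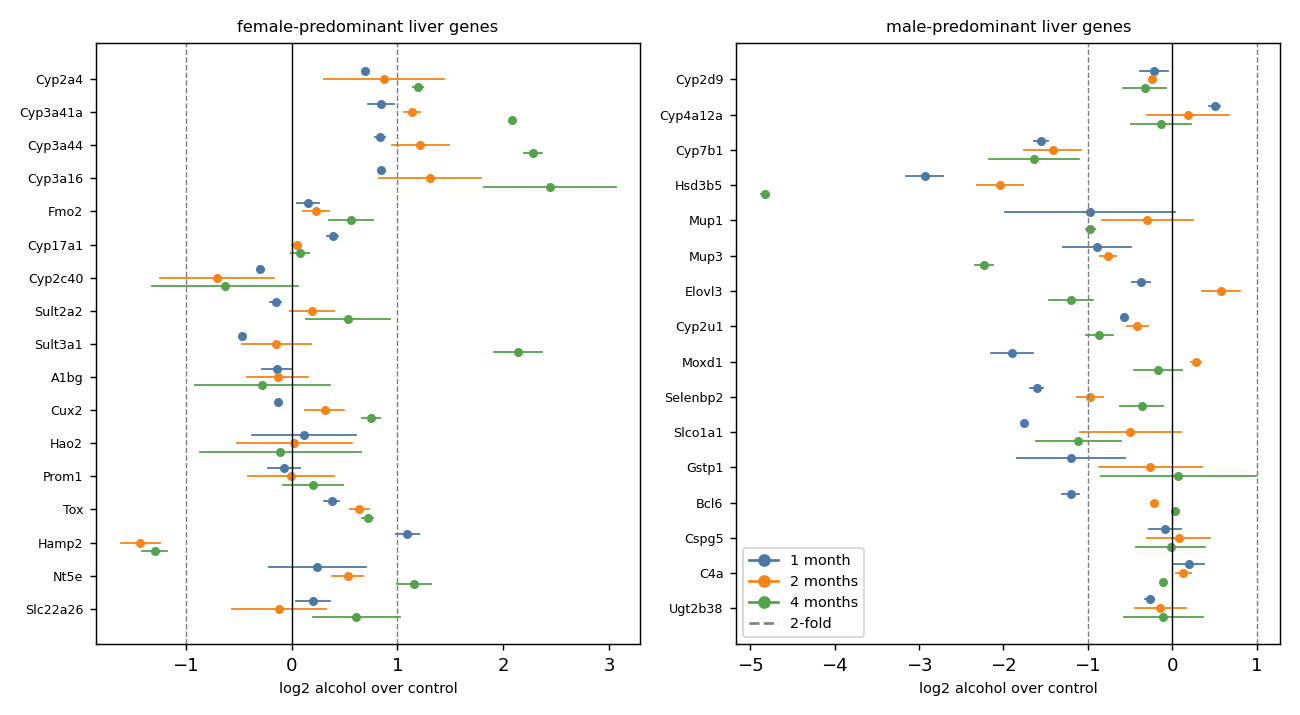
Log2 alcohol over control (x axis) of female-predominant (left) and male-predominant (right) liver genes outside the Cyp2b family, one gene per row and one color per month; points are means, lines join the 2 arrays, dashed lines mark 2-fold, and the panels have different x scales. At 4 months 5 genes on the left are raised on both arrays, and Hsd3b5 on the right has the lowest means, from -4.83 to -2.04.

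The P450 enzyme known for oxidizing ethanol itself did not share the Cyp2b pattern of calls. Cyp2e1 gave log2 ratios of 0.11 and 0.026 at the first time point, 0.49 and -0.33 at the second and 1.00 and -0.62 at the last, and was not called. Of the 6 ethanol-oxidizing enzymes listed, only Adh4, an alcohol dehydrogenase, was called, with a lower level in the alcohol pool at 4 months (-1.47 and -1.01).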

How the data were processed

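Liver RNA pools of 6 mice were measured on two-color Agilent mouse arrays, 2 dye-swapped arrays per month. The authors deposited Feature Extraction 9.1.1.1 output, in which a spot has an intensity per dye, corrected for background and dye, and a log10 ratio (Cy5 over Cy3). The deposited table of log10 ratios was already turned to alcohol over control. After conversion to log2, it was within 0.02 of the scanner ratios for 100% of 40929 probes with 1 spot, and it served as an alternative only. The deposited p-values were not used.

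From the 45018 spots of an array, 1639 control spots were left out. No spot carried an outlier flag (0 spots), and 245 probes with 10 spots were averaged. The log2 ratio was computed from the processed signals, with dyes taken from the labels, and averaged over the dye-swap pair. A call required 2-fold in the same direction on both arrays of a month, among probes with at least 1 channel well above background on both. With 1 pool per group, no test of a month was possible. limma 3.58.1 in R 4.3.3 tested the 3 monthly ratios against 0 with Benjamini-Hochberg adjustment over all 37922 probes at 0.05, and the code was tested on simulated data. Promoters were aligned with biopython 1.88 (match 1, mismatch -1, gap opening -3, gap extension -0.5), and the rest ran in Python 3.11.15 with pandas 2.3.3, numpy 2.4.6 and matplotlib 3.10.9.

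Probes with a RefSeq accession (23848) were named through a table of GRCm38.p6, where 22944 matched. The others, Cyp2b10 probe A_51_P182362 included, kept the name in the files. Older symbols in the gene lists were brought up to date through the same table, and aliases of 1 gene were counted once. A gene of the female-predominant list is not reported here and was left out of that list's counts. The members, the gene lists and the tests were chosen with earlier results of these data known. The text names all Cyp2b probes, sex-dependent genes called at any month, and the 5 nearest genes of each leading Cyp2b probe, a gene counted once. Of the CAR and PXR lists it names the genes called at any month and Nr1i3, Nr1i2, Egfr, Por and Alas1, which were not called. List genes are given by the probe of highest mean signal. Of the other lists, the genes called were named, and also Adgre1, Ahsg, Alb, Apoa1, Cyp2e1 and Xist, which were not called. This choice was made after their values were seen. The alternatives were each array alone, the average of the 2 arrays, 1.5-fold, other filters on dim probes, any probe of a gene, normexp (offset 50) with loess, median centring, the deposited ratios and other channel scalings, as well as leaving out each month.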

Additional observations from a re-analysis of the deposited data

Results flagged for a closer look

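Of the genes named in the text, 5 had ratios on opposite sides of 0 on both arrays of different months, at months where they passed the filter on dim probes. Sult3a1, a sulfotransferase, was below 0 on both arrays of 1 month and above 0 on both arrays of 4 months, a difference of 2.61 on the log2 scale. Hamp2, a hepcidin gene, was above 0 at 1 month and below 0 at 2 and 4 months, and its mean at 1 month exceeded that of the later months by 2.45. Bcl6, a transcriptional repressor, was below 0 at 1 and 2 months and slightly above 0 at 4 months, a difference of 0.74. Nr1i2, which encodes PXR, was below 0 at 1 month and above 0 at 2 and 4 months, a difference of 0.40. Cpb1, a pancreatic carboxypeptidase, was below 0 at 1 month and above 0 at 4 months, a difference of 2.48. Cela2a, a pancreatic elastase, did not pass the filter before 4 months. With 1 pair of pools per month these differences were not tested, and the step from 1 month to the later months also changes the slide.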

How the results depend on the processing

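The counts of raised Cyp2b probes stayed within 1.5 times under all 30 alternatives run, and no ratio of a called Cyp2b probe changed sign. Ratios that were not called did: without replicate 1, A_52_P289091 of Cyp2b13 went to -0.12 and -0.22 at 2 and 4 months and A_51_P352763 of Cyp2b19 to -0.13 and -0.23, and the dim A_52_P421626 of Cyp2b19 went to 0.13 at 2 months after normexp and loess and to 0.035 at 4 months without replicate 2. The counts of CAR and PXR list genes moved more. With either array of a month left out, the raised genes numbered 3 to 4 at 1 month (2 with both arrays), 1 to 5 at 2 months (1 with both) and 8 to 9 at 4 months (5 with both), and 1 gene was lowered at 1 month in place of 0. With a 1.5-fold threshold 10, 5 and 8 genes were raised at 1, 2 and 4 months and 2 were lowered at 1 month. With the average of the 2 arrays 3 were raised at 2 months. The limma effect called 9 probes after normexp and loess and 6 among probes that were bright in every channel, in place of 0, and the cause was not tested. Of the Cyp2b log2 ratios under alternatives that keep both arrays, 89 moved by less than the SD of the 2 arrays and 7 by more (a single array lies within that SD by construction). Of those 7, all but 2 belong to the dim Cyp2b19 probe A_52_P421626. The 2 are A_51_P182362 of Cyp2b10 (2.67) and A_51_P467076 of Cyp2b9 (2.73), both at 2 months after normexp and loess. Of the level values under other channel scalings, 53 moved by less and 43 by more than this SD.

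No paired analysis was possible because the replicate numbers name the 2 dye-swapped arrays of the same pools and pair no mice or pools; each ratio already sets the 2 pools of a month against each other. The slide as a random block was not fitted, since the 3 monthly values gave no estimate of its correlation. Pools of 6 mice hide the variation between animals, and the SDs are technical.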
